A study of Mus musculus with 9 samples.

Results

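Neuropeptides are short signalling molecules that neurons store in dense-core vesicles and release beside their fast transmitter. The genes described here are the 10 neuropeptide genes Sst, Cort, Npy, Vip, Tac2, Crh, Cck, Penk, Pdyn and Tac1, chosen by symbol from the 31053 genes listed in single-nucleus RNA sequencing of the mouse brain. RNA molecules were counted as unique molecular identifiers (UMIs) in nuclei of pooled cortex and hippocampus from 9 male C57BL/6 mice, with 1 library per mouse. Young AAV-EGFP mice were 5 months old, aged AAV-EGFP mice 19 months and aged AAV-B3GNT3 mice 19 months, with 3 mice per group. All 9 mice were wild type and had received an adeno-associated virus (AAV) by the retro-orbital route 8 weeks before, so the young mice also carried virus. The virus used a capsid and a shortened Cldn5 promoter that direct expression to brain endothelial cells. It carried EGFP, the control, or EGFP with B3GNT3, a glycosyltransferase that lengthens the O-glycans of mucins, so the neurons described here were not its target. Ageing was compared between the AAV-EGFP groups, as aged over young, and treatment between the aged groups, as AAV-B3GNT3 over AAV-EGFP. Both use the same 3 aged AAV-EGFP mice, so their opposite signs are not independent of each other. The paper's aged mice came from the National Institute on Aging colony and its young mice from Jackson Laboratories. In the ageing comparison, age and source of the mice therefore cannot be told apart.

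Each peptide gene encodes a precursor that is cut into 1 or more active peptides, which act on G-protein-coupled receptors. In cortex and hippocampus the precursors Sst, Vip and Npy name or mark classes of inhibitory interneuron, and Cck is made by interneurons and by many excitatory neurons. In the striatum Penk marks the neurons of the indirect pathway, and Pdyn and Tac1 those of the direct pathway. Transcription of several of these genes follows neuronal activity, through factors that bind the cAMP response element in their promoters.

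The letters of that element, TGACGTCA, and its first 5 letters on either strand, TGACG or CGTCA, were searched in the 250 bases before each transcription start of Sst, Cort, Npy, Vip, Tac2, Cck, Pdyn and Tac1, the 8 genes matched in the RefSeq promoter table, and not for Penk and Crh. They are shown because the genes with the clearest differences between groups include Sst, in whose promoter the element was described. The stretches below are the last 90 bases before the RefSeq start, 5′ to 3′ on the strand of the gene, with matches in capitals.
Sst, chr16:23890845-23890934, minus strand: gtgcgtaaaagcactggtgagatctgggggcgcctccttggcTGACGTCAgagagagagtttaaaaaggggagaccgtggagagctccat
Cort, chr4:149126764-149126853, minus strand: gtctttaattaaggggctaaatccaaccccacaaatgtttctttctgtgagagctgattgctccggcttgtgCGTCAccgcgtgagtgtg
Npy, chr6:49822620-49822709, plus strand: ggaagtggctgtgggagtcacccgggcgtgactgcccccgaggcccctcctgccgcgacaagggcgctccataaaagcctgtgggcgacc
Vip, chr10:5639128-5639217, plus strand: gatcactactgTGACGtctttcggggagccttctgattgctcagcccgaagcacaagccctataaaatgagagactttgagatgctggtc
Cck, chr9:121495695-121495784, minus strand: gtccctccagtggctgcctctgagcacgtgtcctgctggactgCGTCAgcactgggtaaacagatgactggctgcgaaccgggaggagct
These are RefSeq sequences on GRCm38.p6. The Sst promoter held the whole element, and those of Cort, Vip and Cck held the 5 letters within the stretch shown. Npy, Tac2 and Pdyn had no match in 250 bases, and Tac1 had 2 matches to the 5 letters. Of 32851 promoters of this length, 1.55% held the whole element and 17.8% the 5 letters, which also lie inside it. A match describes the letters only, and binding was not measured.

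All 10 genes are short. In the GENCODE annotation of the mouse genome GRCm38 they span from 1386 bases for Sst (chr16:23889573-23890958) to 13280 bases for Pdyn (chr2:129686565-129699844). The GENCODE gene of Sst begins upstream of the RefSeq start, so the Sst stretch shown lies inside this span, and the 250 bases searched for Tac1 and for 1 of the 2 RefSeq starts of Pdyn also reach into the GENCODE gene. Penk (chr4:4133531-4138819) lies across the antisense gene A830012C17Rik, and the other 9 overlap no annotated gene. Levels are not scaled by length. Molecules are counted from reads at the 3′ end, but whether intronic reads were counted was not determined, so orders of level between genes are a description only.

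The libraries held 47332047 to 79964605 UMIs, and 70228 nuclei were kept, with a median of 3009.5 to 5345 UMIs per nucleus. Neurons made up 31719 of these nuclei, of which 20639 were excitatory. Each pair of libraries shared 7 to 37 barcodes. Neurons were clustered without the 10 peptide genes, so that peptide levels did not define the types, and 18 types were named from other markers. Of 42 neuron clusters, 16 with 7606 nuclei (24.0% of the neurons) stayed unnamed and are not among the types ranked below. The 18 named types include nuclei with the markers of striatal neurons that carry dopamine receptors D1 or D2, although the tissue is labelled cortex and hippocampus. Levels are given as CPM, the UMIs of a gene over all UMIs of a type in a sample on the usual counts-per-million scale, scaled by the trimmed mean of M values (TMM). UMIs were summed per mouse and type, and differences were tested with the quasi-likelihood test of edgeR in 17 sets of neurons, which are 16 types and all excitatory neurons. P-values were adjusted over all genes of a set by the Benjamini-Hochberg method, and a gene with an adjusted p under 0.05 is called. Each mouse is 1 replicate. Intervals over nuclei are not given, because nuclei of 1 mouse are not replicates.

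Each gene had 1 or a few home types among the named types. Vip reached 352 ± 170.1 CPM (SD, n = 9) in Vip-like interneurons, which was 93.5 times the level of the next type. Penk reached 226 ± 30.7 CPM in striatal D2-like neurons, 12.7 times the level in Vip-like interneurons. Sst reached 114 ± 57.4 CPM in Sst-like interneurons, 14.9 times that in Pvalb-like interneurons. Tac2, the precursor of neurokinin B, reached 29.1 ± 15.2 CPM in Vip-like interneurons, 13.4 times that in Sst-like interneurons. In these 4 cases the ranges over the 9 mice did not overlap between the first and the next type. Without TMM scaling and over all mice, the unnamed cluster led by Foxp2 (634 nuclei) held 43.0 CPM of Penk. The unnamed cluster led by mt-Atp6 (591 nuclei with few UMIs) held 35.8 CPM of Vip, 42.0 of Penk, 53.1 of Sst and 4.94 of Tac2.

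Tac1, the precursor of substance P, was highest among named types in striatal D1-like neurons at 96.8 ± 11.0 CPM (SD, n = 9). It was lower in Pvalb-like interneurons at 24.0 ± 9.32 CPM, and lower again in striatal D2-like neurons at 5.24 ± 1.93 CPM, with no overlap between neighbours in this order. Without TMM scaling and over all mice, 2 unnamed clusters also held Tac1, the one led by Drd3 (58 nuclei, 53 of them from young AAV-EGFP replicate 2) at 142 CPM and the one led by Foxp2 (634 nuclei) at 62.3 CPM. The remaining genes had first and second types whose ranges overlapped. Npy stood at 119.7 ± 86.3 CPM in Lamp5-like and 51.7 ± 23.9 CPM in Sst-like interneurons. Cort, the precursor of cortistatin, a relative of somatostatin, stood at 10.6 ± 5.83 CPM in Pvalb-like and 8.18 ± 4.05 CPM in Sst-like interneurons. Crh, the corticotropin-releasing hormone, stood at 16.5 ± 9.45 CPM in Vip-like and 2.66 ± 1.55 CPM in Sst-like interneurons. Pdyn, the precursor of dynorphins, stood at 25.5 ± 7.88 CPM in striatal D1-like neurons, 16.2 ± 8.14 CPM in Sst-like interneurons and 4.85 ± 2.18 CPM in dentate granule-like neurons.

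**Figure D1:**
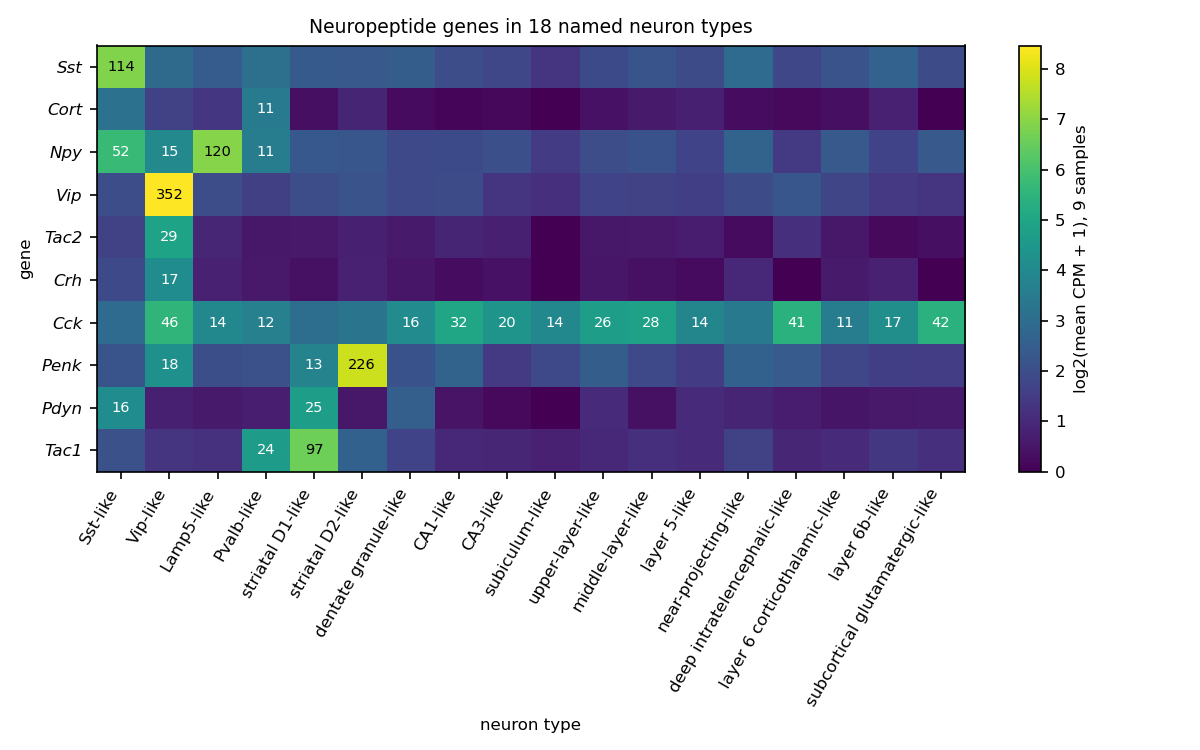
Mean level of each gene (rows) in 18 named neuron types (columns) over 9 mice (8 in the subcortical glutamatergic-like type), as log2(CPM + 1), with means of at least 10 CPM printed as CPM. Cck was spread over interneurons and excitatory types, with its lowest mean in Sst-like interneurons, while Vip, Penk and Sst each had 1 type far above the next.

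Cck, the precursor of cholecystokinin, was the widest in its expression. It stood at 45.7 ± 20.8 CPM in Vip-like interneurons, 41.7 ± 26.5 in subcortical glutamatergic-like, 41.4 ± 20.2 in deep intratelencephalic-like, 31.5 ± 12.5 in CA1-like and 27.9 ± 10.01 in middle-layer-like neurons (SD, n = 9, except n = 8 in the subcortical type, which had no nuclei in aged AAV-B3GNT3 replicate 1), and each neighbour in this order overlapped the next. Sncg interneurons, a class known for Cck, were not named as a type of their own. The cluster led by Frem1 passed 4 of 6 Sncg markers, among them Cnr1, and 5 of 7 Vip markers, and was counted as Vip-like because the Vip markers stood higher on average. The level of Cck in Vip-like interneurons therefore includes nuclei with markers of both classes. Without TMM scaling and over all mice, unnamed clusters also held Cck. They were led by Blnk (1928 nuclei, 45.4 CPM), Atp10b (567 nuclei, 42.8 CPM) and mt-Atp6 (591 nuclei with few UMIs, 121 CPM).

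Clusters within a type had different levels, given here without TMM scaling and as a description. Of the Sst-like interneurons, the cluster led by Nos1 (285 nuclei) had 116.6 CPM of Npy over all mice and the cluster with Grin3a among its leading genes (1071 nuclei) had 35.6 CPM, while Sst was 109 and 121 CPM in the same order. Pdyn was 20.4 CPM in the Grin3a cluster. Of the Vip-like interneurons, the cluster led by Igf1 (723 nuclei) had 598 CPM of Vip and the cluster led by Frem1 (389 nuclei) had 86.5 CPM. Cck had the reverse order, with 77.3 CPM in the Frem1 cluster, which also carried Sncg markers. Crh at 29.5 CPM, Penk at 29.3 CPM and Tac2 at 38.0 CPM were highest in the Igf1 cluster.

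Over the 18 types, the genes most alike in level to Sst were Adamts12 (Pearson's r = 0.81), Hpse and Crhbp (both r = 0.81), the last of which encodes the binding protein of Crh. For Vip they were Grpr and Tac2 (both r = 0.96) and Megf10 (r = 0.95), and for Tac2 they were Vip and Grpr (both r = 0.96) and Htr3a (r = 0.92). For Crh they were Grpr (r = 0.95), Tac2 (r = 0.93) and Htr3a (r = 0.92). For Cort they were Spsb4, Corin (both r = 0.95) and Sox6 (r = 0.92), and for Npy they were Hapln1 (r = 0.89), Acsl1 (r = 0.88) and Mageb18 (r = 0.87). For Penk they were Adora2a (r = 0.89), Meis1 and Upb1 (both r = 0.85), and for Tac1 they were Mme, CAAA01118383.1 (both r = 0.82) and Impg1 (r = 0.81). For Cck they were Sorcs3 (r = 0.85), Nr2f1 (r = 0.77) and Grid2ip (r = 0.74), and for Pdyn they were Isl1 (r = 0.68), Zfp521 (r = 0.66) and Frmd4b (r = 0.65). These values are over n = 18 types that share libraries, are given as a description and carry no test. Crhbp, Htr3a, Hapln1, Adora2a and Isl1 are among the markers that named the types, so their likeness over these types is partly built in.

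Where the 10 genes were called between groups, the aged AAV-EGFP mice had the higher level. A gene was tested in a set where it passed the filter on low counts, which gave 54 pairs of gene and set. In ageing, 9 of the 54 pairs were called and all 9 were higher in aged AAV-EGFP, against 4.57% of all gene and set pairs called in either direction and 2.31% called higher. The estimate was positive in 52 of the 54 pairs, with a median log2 fold change of 0.83, while the median over all genes lay between -0.01 and 0.02 in every set. At an unadjusted p under 0.05 there were 32 pairs, and DESeq2, run on 169 pairs without the filter and with no adjusted p for some of them, called 6, of which 5 are among the 9. In treatment, 4 of the 54 pairs were called and all 4 were lower in aged AAV-B3GNT3, against 0.803% called in either direction and 0.568% called lower. The estimate was positive in 6 of the 54 pairs, with a median of -0.75, 25 pairs had an unadjusted p under 0.05 and DESeq2 called 7 of 169, of which 3 are among the 4. Pairs of 1 gene share mice, and the set of all excitatory neurons holds the excitatory types, so these pairs are not independent. The filter can pass a pair on the counts of 3 mice, such as the aged AAV-EGFP mice that both comparisons use. The counts of calls and of signs and the medians are therefore a description and carry no test. After subtraction of the oligodendrocyte level, described below, 29 pairs passed the filter. Crh in Sst-like interneurons (33 UMIs over all mice) and Pdyn in dentate granule-like neurons (44 UMIs) did not pass the filter.

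**Figure D2:**
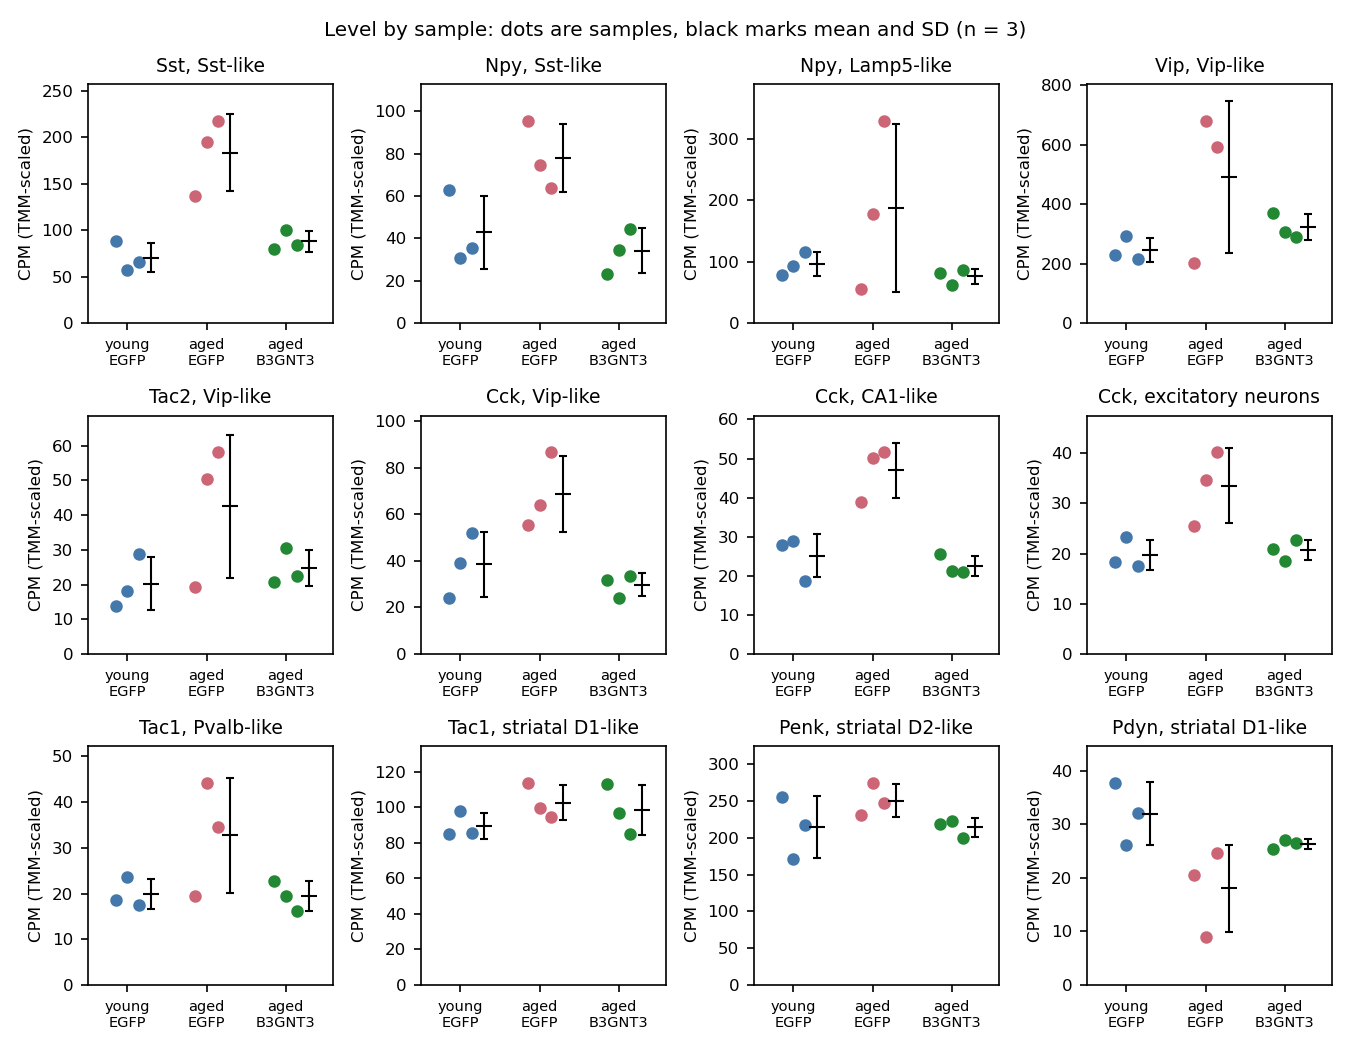
Level by mouse (CPM, TMM-scaled, linear axes from 0) for 12 pairs of gene and neuron set, with dots for mice and black marks for the mean and SD of each group (n = 3). For Sst in Sst-like interneurons the 3 aged AAV-EGFP mice, at 137 to 218 CPM, lay above the other 6 mice, while Penk and Tac1 in striatal neurons overlapped among groups.

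Sst, the precursor of somatostatin, an inhibitory peptide of interneurons that target dendrites, rose with age and fell with AAV-B3GNT3 in Sst-like interneurons. The values were 88.1, 57.4 and 66.2 CPM in the young AAV-EGFP mice, 137, 195 and 218 CPM in the aged AAV-EGFP mice, and 79.3, 100.1 and 84.3 CPM in the aged AAV-B3GNT3 mice. Every aged AAV-EGFP mouse lay above every mouse of the other groups. The ageing change was a log2 fold change of 1.38 ± 0.18 (SE), or 2.61-fold (edgeR, Benjamini-Hochberg adjusted p = 0.0011), in a set where 1.58% of genes were called. The treatment change was -1.07 ± 0.18, or 2.10-fold lower (edgeR, adjusted p = 0.0191), where 0.442% of genes were called. The ageing call was kept without any 1 mouse. The treatment call was lost without aged AAV-EGFP replicate 2 (adjusted p = 0.147), aged AAV-B3GNT3 replicate 1 (adjusted p = 0.124) or aged AAV-B3GNT3 replicate 2 (adjusted p = 0.0744).

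The difference in Sst was seen in the share of nuclei and in the amount per nucleus. With each nucleus thinned to 2000 UMIs, Sst was detected in 13.5% of Sst-like nuclei in the young mice, 29.1% in the aged AAV-EGFP mice and 16.4% in aged AAV-B3GNT3 (means of 3 mice, 2 nuclei left out as shallower). Before thinning the shares were 44.0, 63.5 and 47.0% in the same order. In oligodendrocytes, which should not make Sst, the thinned shares were 2.05, 4.46 and 2.44%. Their median depth before thinning was 2644 UMIs, against 9185 in Sst-like nuclei, and 2101, 4547 and 3538 shallower oligodendrocytes were left out. Nuclei with a Sst UMI held 1.55 ± 0.143, 2.69 ± 0.448 and 2.002 ± 0.155 Sst UMIs (SD, n = 3). Sst was higher in aged AAV-EGFP in both clusters of Sst-like nuclei, with group means of 66.5, 173 and 89.9 CPM in the Grin3a cluster and 77.1, 155 and 93.9 CPM in the Nos1 cluster. The Nos1 cluster made up 25.1 ± 3.002% of Sst-like nuclei in the young mice, 19.2 ± 14.95% in the aged AAV-EGFP mice and 20.4 ± 9.58% in aged AAV-B3GNT3. Cort in Sst-like interneurons was 9.70, 8.20 and 3.15 CPM in young AAV-EGFP, 8.68, 5.71 and 14.7 CPM in aged AAV-EGFP and 6.90, 3.15 and 13.5 CPM in aged AAV-B3GNT3, and the groups overlapped. Its log2 fold changes were 0.42 ± 0.50 (SE) with age and -0.20 ± 0.48 with treatment, and neither was called.

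**Figure D3:**
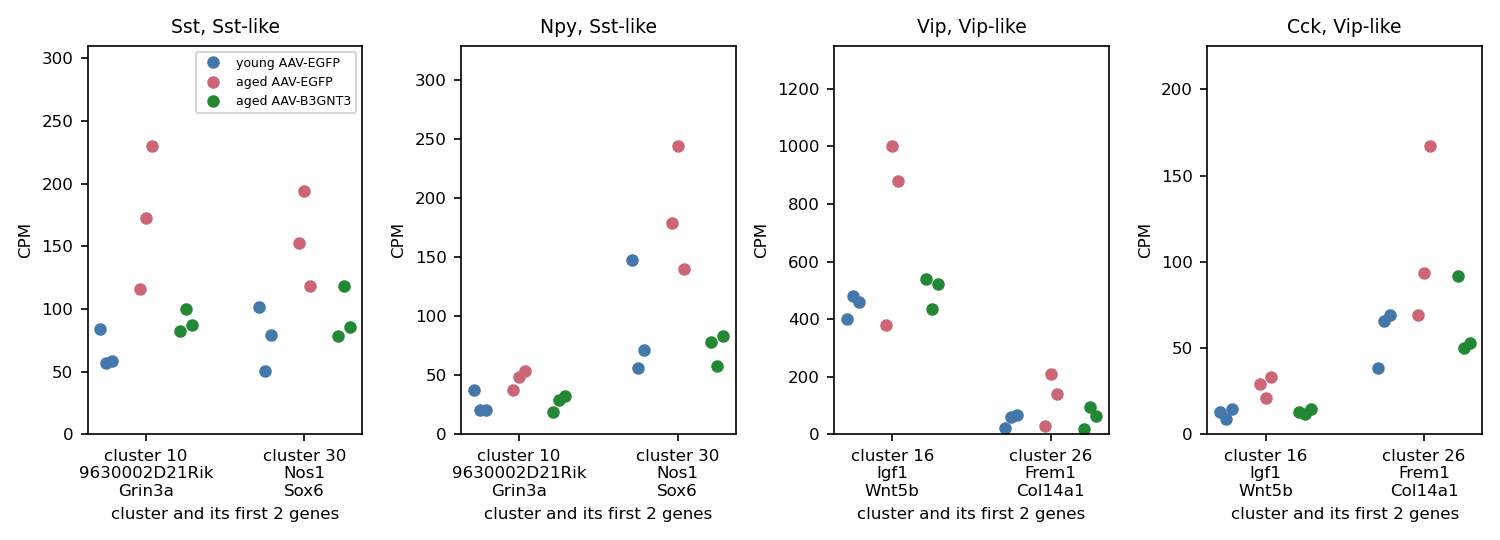
CPM by mouse of Sst and Npy in the 2 clusters of Sst-like nuclei and of Vip and Cck in the 2 clusters of Vip-like nuclei, each cluster labelled by its first 2 genes and each dot 1 mouse coloured by group. Sst was highest in aged AAV-EGFP in both Sst-like clusters, with means of 173 and 155 CPM, and Vip was mostly in the Igf1 cluster.

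Npy, the precursor of neuropeptide Y, an inhibitory peptide of neurogliaform cells and of some Sst cells, fell with AAV-B3GNT3 in Sst-like interneurons. Its values there were 62.7, 30.6 and 35.4 CPM in young AAV-EGFP, 95.5, 74.8 and 63.6 CPM in aged AAV-EGFP and 23.3, 34.7 and 44.5 CPM in aged AAV-B3GNT3. The lowest aged AAV-EGFP mouse lay just above the highest young mouse, and the aged AAV-B3GNT3 mice lay below all aged AAV-EGFP mice. The log2 fold change was -1.15 ± 0.25 (SE) with treatment (edgeR, adjusted p = 0.0475) and 0.85 ± 0.24 with age (adjusted p = 0.0807). The treatment call was lost without 5 of the 9 mice in turn, which were young AAV-EGFP replicate 3, aged AAV-EGFP replicates 1 and 2, and aged AAV-B3GNT3 replicates 1 and 2, with adjusted p of 0.0606 to 0.212. It was also lost with the replicate number as a block (adjusted p = 0.0644), with finer clustering (0.0719), with doublets kept (0.0890) and with no upper limit on genes (0.0708), and was kept with DESeq2 (0.0167). The ageing value became a call without young AAV-EGFP replicate 1 (edgeR, adjusted p = 0.0386). The Nos1 cluster, where Npy is higher, made up 21.7, 26.8 and 27.0% of Sst-like nuclei in the young mice. It made up 36.4, 9.68 and 11.5% in the aged AAV-EGFP mice and 9.4, 25.5 and 26.4% in aged AAV-B3GNT3. Without TMM scaling, group means of Npy were 91.5 ± 49.2, 187 ± 52.7 and 73.0 ± 13.7 CPM in that cluster (SD, n = 3). They were 26.1 ± 10.0, 46.7 ± 8.05 and 26.6 ± 7.08 CPM in the Grin3a cluster. The part of the cluster shares was not tested.

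In Lamp5-like interneurons Npy was 78.4, 93.2 and 116.0 CPM in young AAV-EGFP, 55.5, 177 and 329 CPM in aged AAV-EGFP and 80.8, 61.6 and 85.5 CPM in aged AAV-B3GNT3. Aged AAV-EGFP replicate 1 was the lowest of the 9 mice and replicates 2 and 3 were the highest. The log2 fold changes were 0.997 ± 0.33 (SE) with age (edgeR, adjusted p = 0.144) and -1.33 ± 0.34 with treatment (adjusted p = 0.0711). Both values rested on single mice of that group. Without aged AAV-EGFP replicate 1 both became calls, at 1.39 and -1.73 (edgeR, adjusted p = 0.00049 and 0.00011), and without aged AAV-EGFP replicate 3 they were 0.34 and -0.67 (adjusted p = 0.686 and 0.334). The changes of Npy in Sst-like and in Lamp5-like interneurons differed by 0.26 ± 0.68 on the log2 scale with age and by -0.23 ± 0.68 with treatment (Sst-like minus Lamp5-like, limma on log2 CPM within mice), and neither was called. The edgeR estimates above have the opposite order, and both differences are smaller than their SE.

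Vip, the vasoactive intestinal peptide of interneurons that inhibit other interneurons, had the highest level of the 10 genes and a wide spread. In Vip-like interneurons it was 229, 291 and 215 CPM in young AAV-EGFP, 201, 679.6 and 591 CPM in aged AAV-EGFP and 371, 306 and 288 CPM in aged AAV-B3GNT3. As with Npy in Lamp5-like interneurons, aged AAV-EGFP replicate 1 lay lowest and replicates 2 and 3 highest. The log2 fold changes were 1.001 ± 0.27 (SE) with age (edgeR, adjusted p = 0.0988) and -0.62 ± 0.27 with treatment (adjusted p = 0.315). Without aged AAV-EGFP replicate 1 they were 1.37 and -0.98 and were called (edgeR, adjusted p = 0.00016 and 0.0060), and without aged AAV-EGFP replicate 2 they were 0.69 and -0.30 (adjusted p = 0.372 and 0.784).

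Tac2 and Crh share the Vip-like interneurons. Tac2 was 13.9, 18.1 and 28.7 CPM in young AAV-EGFP, 19.2, 50.3 and 58.2 CPM in aged AAV-EGFP and 20.9, 30.6 and 22.5 CPM in aged AAV-B3GNT3, again with aged AAV-EGFP replicate 1 apart from the other 2 mice. Its log2 fold changes were 1.12 ± 0.34 (SE) with age (edgeR, adjusted p = 0.126) and -0.80 ± 0.32 with treatment (adjusted p = 0.280). Without that mouse they were 1.44 and -1.12 and were called (edgeR, adjusted p = 0.0119 and 0.0434), and without aged AAV-EGFP replicate 3 they were 0.86 and -0.53 (adjusted p = 0.418 and 0.569). Crh was 27.7, 9.55 and 4.10 CPM, then 10.1, 20.7 and 33.3 CPM, then 13.5, 18.99 and 10.8 CPM in the same order of groups, and all groups overlapped. Its log2 fold changes were 0.62 ± 0.47 and -0.58 ± 0.46, and neither was called.

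Cck was called in more sets than any other of the 10 genes, but the genes were not tested in equal numbers of sets. Its call with age in Sst-like interneurons lay at the oligodendrocyte level, described below. In all excitatory neurons Cck was 18.4, 23.2 and 17.5 CPM in young AAV-EGFP, 25.5, 34.7 and 40.2 CPM in aged AAV-EGFP and 20.96, 18.6 and 22.6 CPM in aged AAV-B3GNT3. The aged AAV-EGFP mice lay above the other 6 mice. The log2 fold change with age was 0.76 ± 0.17 (SE; edgeR, adjusted p = 0.0163), in a set where 14.1% of genes were called. It was lost without young AAV-EGFP replicate 3, aged AAV-EGFP replicate 2 or aged AAV-EGFP replicate 3 (adjusted p of 0.0634 to 0.0772). The log2 fold change with treatment was -0.69 ± 0.17 and was not called (adjusted p = 0.0531), where 2.17% of genes were called, but it was called without aged AAV-EGFP replicate 1 or aged AAV-B3GNT3 replicate 3 (adjusted p of 0.0168 at the lowest). This set includes the unnamed cluster led by Blnk, with 45.4 CPM of Cck over all mice (without TMM scaling). It had 161, 215 and 179 nuclei in young AAV-EGFP, 212, 410 and 273 in aged AAV-EGFP and 146, 166 and 166 in aged AAV-B3GNT3. Deep intratelencephalic-like neurons had 92, 172 and 68 nuclei in the same order of groups, of 6938, 7574 and 6127 excitatory nuclei. The part of this makeup in the values of Cck was not tested.

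Among excitatory types, middle-layer-like neurons had 16.2, 24.5 and 20.7 CPM of Cck in young AAV-EGFP, 32.4, 41.3 and 45.8 CPM in aged AAV-EGFP and 20.2, 23.3 and 26.8 CPM in aged AAV-B3GNT3, with the aged AAV-EGFP mice above the rest. The rise with age was 0.97 ± 0.18 on the log2 scale (SE; edgeR, adjusted p = 0.0081), where 9.37% of genes were called, and it was kept without any 1 mouse. With treatment the log2 fold change was -0.78 ± 0.18 and was not called (edgeR, adjusted p = 0.0568), where 0.642% of genes were called, but it was called in 7 of 18 other settings, 3 of which leave out young AAV-EGFP replicate 1, aged AAV-EGFP replicate 1 or aged AAV-B3GNT3 replicate 3 (adjusted p of 0.0212 to 0.0331). In CA1-like neurons, the output cells of the hippocampus, Cck was 27.8, 28.8 and 18.8 CPM, then 39.0, 50.1 and 51.7 CPM, then 25.5, 21.1 and 21.01 CPM in the same order of groups, without overlap between aged AAV-EGFP and the others. It rose by 0.87 ± 0.22 with age (edgeR, adjusted p = 0.0494), where 1.39% of genes were called, and fell by 1.05 ± 0.22 with treatment (adjusted p = 0.0363), where 0.642% were called. Both calls lay near the threshold. The call with age was lost with RLE size factors (edgeR, adjusted p = 0.0506), with DESeq2 (0.118) and with the replicate block (0.0578), and for treatment DESeq2 gave no adjusted p. The call with age was also lost without any of the 3 young mice, aged AAV-EGFP replicates 2 and 3 or aged AAV-B3GNT3 replicate 1, and the call with treatment without aged AAV-EGFP replicates 2 or 3 or aged AAV-B3GNT3 replicates 1 or 2, with adjusted p of 0.0634 to 0.260. In upper-layer-like neurons, where 7.35% of genes were called with age, the log2 fold changes of Cck were 0.40 ± 0.24 with age and -0.37 ± 0.24 with treatment, and neither was called.

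In Vip-like interneurons Cck was 24.3, 39.2 and 52.0 CPM in young AAV-EGFP, 55.5, 63.8 and 86.8 CPM in aged AAV-EGFP and 31.9, 24.3 and 33.3 CPM in aged AAV-B3GNT3. The aged AAV-EGFP mice lay above the other 6. It fell by 1.20 ± 0.24 on the log2 scale with treatment (SE; edgeR, adjusted p = 0.0275), where 0.484% of genes were called, and its estimate with age was 0.85 ± 0.24 (adjusted p = 0.105). The fall was lost without aged AAV-EGFP replicates 2 or 3 or aged AAV-B3GNT3 replicates 1 or 2 (adjusted p of 0.0897 to 0.196), with doublets kept (0.0537) or with no upper limit on genes (0.0744). The Frem1 cluster, where Cck is higher, made up 43.4 ± 12.5% of Vip-like nuclei in the young mice, 35.4 ± 5.97% in the aged AAV-EGFP mice and 27.9 ± 9.32% in aged AAV-B3GNT3 (SD, n = 3). Within that cluster Cck was 57.6 ± 16.9, 109.8 ± 50.98 and 64.9 ± 23.1 CPM in the same order, and within the Igf1 cluster it was 12.1 ± 3.03, 27.97 ± 6.22 and 13.0 ± 1.47 CPM, so its mean was highest in aged AAV-EGFP in both. The part of the cluster shares in the call was not tested. The treatment change of Cck in Vip-like interneurons minus that in upper-layer-like neurons was -0.77 ± 0.25 (limma on differences within mice, Benjamini-Hochberg adjusted p = 0.848).

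**Figure D4:**
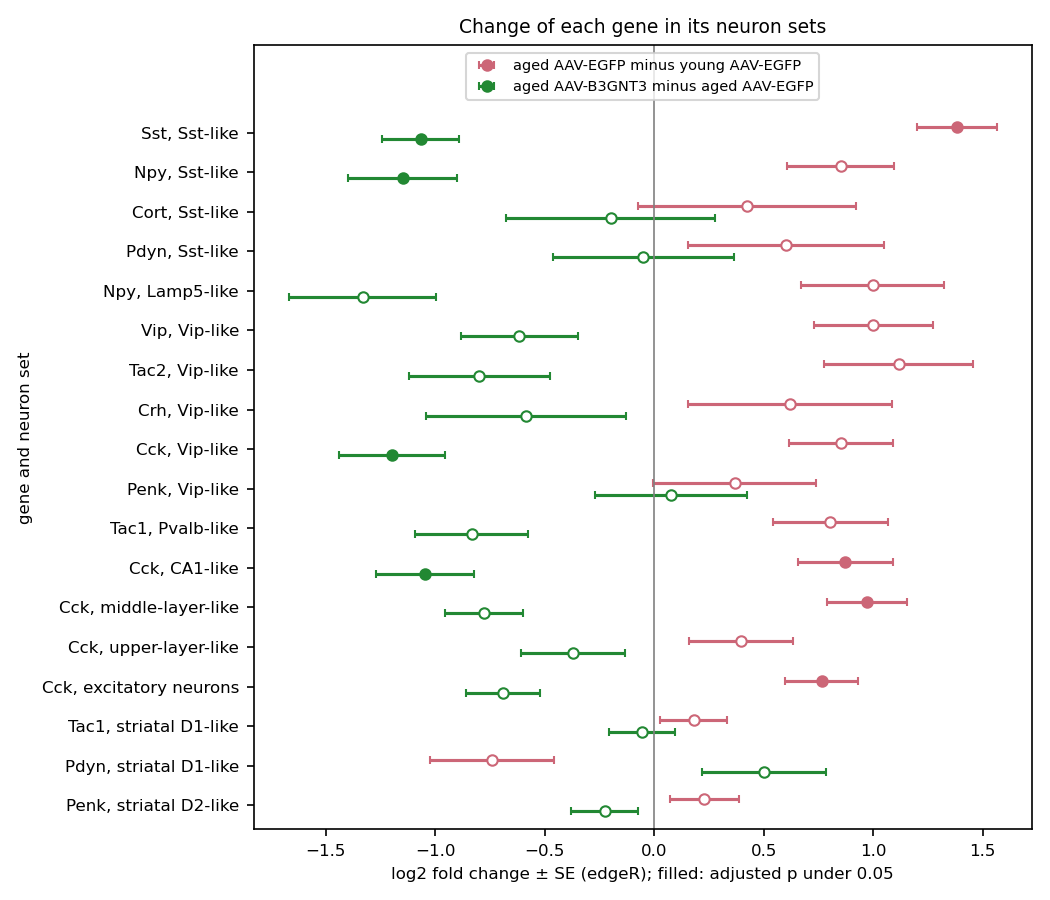
Log2 fold change ± SE of 18 pairs of gene and neuron set with age (red) and with AAV-B3GNT3 (green), with filled dots for pairs called at an adjusted p under 0.05 in edgeR. Estimates with age ran from -0.74 for Pdyn in striatal D1-like neurons to 1.38 for Sst in Sst-like interneurons, and the 3 striatal pairs had no call.

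The striatal peptides had no call in their home types. Penk, the precursor of enkephalins, was 255.5, 171 and 217.5 CPM in striatal D2-like neurons of young AAV-EGFP, 230.2, 274 and 247 CPM in aged AAV-EGFP and 219, 223 and 199.9 CPM in aged AAV-B3GNT3. Its log2 fold changes were 0.23 ± 0.16 (SE) with age and -0.23 ± 0.15 with treatment. Tac1 in striatal D1-like neurons was 85.2, 97.8 and 85.3 CPM, then 113.8, 99.6 and 94.8 CPM, then 113.0, 96.8 and 85.1 CPM in the same order of groups, and its log2 fold changes were 0.18 ± 0.15 and -0.06 ± 0.15. The groups overlapped for both genes.

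Pdyn was the gene whose estimate with age was below 0 in its home type. In striatal D1-like neurons it was 37.8, 26.1 and 32.1 CPM in young AAV-EGFP, 20.5, 8.999 and 24.7 CPM in aged AAV-EGFP and 25.4, 27.1 and 26.5 CPM in aged AAV-B3GNT3. All 3 aged AAV-EGFP mice lay below the other 6 mice, but the log2 fold changes of -0.74 ± 0.28 (SE) with age (edgeR, adjusted p = 0.143) and 0.50 ± 0.28 with treatment (adjusted p = 0.437) were not called. In Sst-like interneurons Pdyn was 12.7, 8.20 and 15.8 CPM, then 4.34, 18.6 and 31.2 CPM, then 25.0, 15.8 and 14.0 CPM. The groups overlapped, and the log2 fold changes were 0.60 ± 0.45 and -0.05 ± 0.41. The change with age in striatal D1-like neurons minus that in Sst-like interneurons was -1.10 ± 0.62 (limma, adjusted p = 0.621).

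Outside the striatal types, Tac1 in Pvalb-like interneurons was 18.7, 23.7 and 17.4 CPM in young AAV-EGFP, 19.4, 44.2 and 34.5 CPM in aged AAV-EGFP and 22.7, 19.6 and 16.2 CPM in aged AAV-B3GNT3. Here too aged AAV-EGFP replicate 1 lay apart from the other 2 mice of its group. The log2 fold changes were 0.80 ± 0.26 (SE) with age (edgeR, adjusted p = 0.0979) and -0.83 ± 0.26 with treatment (adjusted p = 0.103), and without that mouse they were 1.01 and -1.04 and were called (edgeR, adjusted p = 0.0248 and 0.0321). Without aged AAV-EGFP replicate 2 they were 0.53 and -0.56 (adjusted p = 0.445 and 0.522). Penk in Vip-like interneurons had log2 fold changes of 0.37 ± 0.37 and 0.08 ± 0.35, and neither was called.

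Differences between types in the change of a gene were tested within mice with limma. Of 9 pairs of types, 6 could be tested, and 0 were called with age or with treatment, which does not show that the changes were alike. At an unadjusted p under 0.05 there were 0 with age and 1 with treatment, which was Cck in Vip-like against upper-layer-like neurons. Over all genes in these pairs of types, 0% were called with age and 0.00254% with treatment. The change with age of Penk in striatal D2-like neurons minus that in Vip-like interneurons was 0.03 ± 0.36 (SE), and the difference with treatment was -0.43 ± 0.36. For Tac1 in striatal D1-like neurons minus Pvalb-like interneurons the differences were -0.40 ± 0.30 and 0.59 ± 0.30, and for Cck in Vip-like interneurons minus all excitatory neurons 0.02 ± 0.26 and -0.45 ± 0.26.

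Part of the calls lay at the level measured in oligodendrocytes, nuclei that should not make these genes. Free RNA from broken cells, doublets and misassigned nuclei can each give such UMIs, and they were not told apart. In oligodendrocytes, Sst stood at 3.18 UMIs per 100 nuclei in the young mice, 5.23 in the aged AAV-EGFP mice and 2.94 in aged AAV-B3GNT3. Npy stood at 2.71, 5.56 and 2.76, Cck at 5.37, 9.82 and 4.77, Vip at 1.67, 2.64 and 2.61, Tac2 at 0.364, 0.785 and 0.358 and Tac1 at 1.24, 1.70 and 0.890 in the same order of groups. Penk stood at 2.68, 2.96 and 2.56, Pdyn at 0.421, 0.188 and 0.312, Cort at 0.133, 0.388 and 0.254 and Crh at 0.199, 0.273 and 0.278. The mean oligodendrocyte levels of Sst, Npy and Cck were highest in aged AAV-EGFP, as were their mean levels in interneurons. These differences in oligodendrocytes were not tested.

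**Figure D5:**
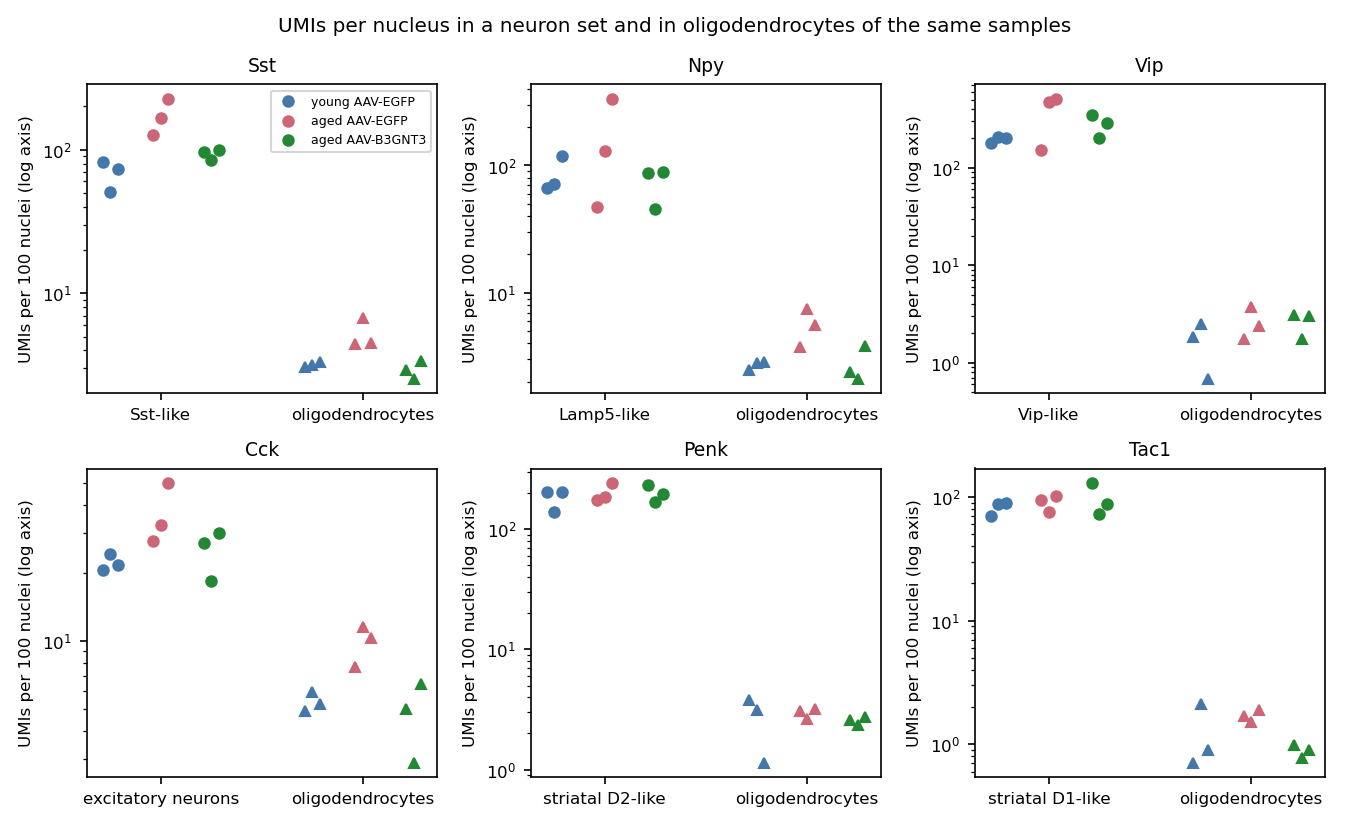
UMIs per 100 nuclei (log axis) of 6 genes in a neuron set (circles) and in oligodendrocytes (triangles), with 1 point per mouse coloured by group. Home types lay far above oligodendrocytes, as for Sst with 112 against 3.78 UMIs per 100 nuclei over all mice. Cck in excitatory neurons had 4.23 times as many UMIs per nucleus. Counts per nucleus are not matched for depth, and oligodendrocytes were shallower.

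Over all 9 mice, Sst-like nuclei held 112 Sst UMIs per 100 nuclei, 29.5 times the 3.78 in oligodendrocytes, while excitatory neurons held 3.67 UMIs per 100 nuclei, 0.970 times the oligodendrocyte level. Layer 6 corticothalamic-like neurons held 0.952 times that level. The calls of Sst with age in all excitatory neurons (log2 fold change 1.08 ± 0.30 (SE), edgeR, adjusted p = 0.0372) and in layer 6 corticothalamic-like neurons (1.48 ± 0.40, adjusted p = 0.0253, where 12.4% of genes were called) were thus at the oligodendrocyte level. So was the call of Npy with age in middle-layer-like neurons (1.44 ± 0.38, adjusted p = 0.0312), with 3.69 UMIs per 100 nuclei against 3.68 in oligodendrocytes. So was that of Cck with age in Sst-like interneurons (1.93 ± 0.47, adjusted p = 0.0461), with 6.82 against 6.66. Cort with age in all excitatory neurons (2.25 ± 0.59, adjusted p = 0.0286) stood at 0.403 UMIs per 100 nuclei against 0.259. Each of these 5 calls was lost without young AAV-EGFP replicate 3 and without at least 3 others among young AAV-EGFP replicates 1 and 2, aged AAV-EGFP replicates 2 and 3 and aged AAV-B3GNT3 replicates 1 and 2 (edgeR, adjusted p of 0.0530 to 0.246). Cck in excitatory neurons stood at 28.1 UMIs per 100 nuclei against 6.66, or 4.23 times as many. This count per nucleus was higher than in oligodendrocytes in 9 of 9 mice. With nuclei thinned to 2000 UMIs, the share with a Cck UMI was 3.83, 6.34 and 4.03% against 3.75, 7.89 and 3.37% in oligodendrocytes. The thinned oligodendrocytes were the deeper ones, with 2630 used and 4547 left out in aged AAV-EGFP, so the thinned shares were not read as a difference between the 2 kinds of nuclei. Unthinned, 22.1% of excitatory nuclei held a Cck UMI, against 6.22% of oligodendrocytes. These unthinned shares, and the 4.23 times as many UMIs per nucleus, are not matched for depth and were not read as a difference either. Excitatory nuclei had a median of 10418 to 11093 UMIs (means of 3 mice per group), and oligodendrocytes were shallower.

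The oligodendrocyte level of each mouse was subtracted from each neuron set, per nucleus and not scaled for depth. After this, Sst in Sst-like interneurons kept both calls (log2 fold changes 1.41 and -1.07, edgeR, adjusted p = 0.0013 and 0.0193). Cck kept its calls with age in middle-layer-like neurons (0.96, adjusted p = 0.0124) and in all excitatory neurons (0.70, adjusted p = 0.0293). The other calls in home types passed the threshold before the subtraction and not after it, with little change in the estimates. With treatment the log2 fold change of Npy in Sst-like interneurons was -1.13 (edgeR, adjusted p = 0.0612), that of Cck in Vip-like interneurons -1.17 (0.0609) and that of Cck in CA1-like neurons -0.98 (0.0616). With age that of Cck in CA1-like neurons was 0.84 (edgeR, adjusted p = 0.0799). The subtraction also made 1 call, that of Penk with age in striatal D1-like neurons, at 1.62 ± 0.41 (edgeR, adjusted p = 0.0404) against 1.13 ± 0.36 (0.0816) before, from 2 to 33 UMIs per mouse. This pair was named after its values were seen.

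Other measures of the libraries moved with the groups as well. In Sst-like interneurons Malat1, a nuclear noncoding RNA, took 1.92 ± 0.312% of UMIs (SD, n = 3) in the young mice, 2.51 ± 0.0517% in the aged AAV-EGFP mice and 1.79 ± 0.0578% in aged AAV-B3GNT3. Ribosomal protein genes took 0.0692, 0.0976 and 0.0705% in the same order. Aged AAV-EGFP replicate 1 lay apart for Vip, Tac2 and Tac1 and, in Lamp5-like interneurons, for Npy. It also had the lowest ribosomal protein share of its group. The share was 0.0848% against 0.103 and 0.112% in Lamp5-like, 0.0830% against 0.114 and 0.119% in Vip-like and 0.0684% against 0.0939 and 0.108% in Pvalb-like interneurons. In the Vip-like and Pvalb-like types its share lay within the range of the other 2 groups. In Sst-like interneurons its share was 0.0847% against 0.101 and 0.107%. There its Npy was the highest of its group and its Sst the lowest. The Nos1 cluster, where Npy is higher, made up 36.4% of its Sst-like nuclei, against 9.68 and 11.5% in the rest of its group. Genes that span under 14000 bases, as all 10 peptide genes do, had a median log2 fold change of 0.15 with age in Sst-like interneurons against -0.03 for longer genes, and of -0.13 against 0.03 with treatment. In striatal D2-like neurons short genes had a median of 0.19 with age and -0.12 with treatment. The estimates of Penk there were 0.23 and -0.23, and neither was called. The part of these measures in the results on the peptide genes was not tested. Summed markers of oligodendrocytes in Sst-like interneurons ran from 170 to 209 CPM in young AAV-EGFP, 110.4 to 147 CPM in aged AAV-EGFP and 143 to 196 CPM in aged AAV-B3GNT3, with 0 of 7 markers at 0. Their part was not tested.

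The receptors of the peptides, 20 genes with the binding protein Crhbp added, were tested where they passed the filter, which 18 of the 21 did. With age 4 of 102 pairs of gene and set were called, a share no higher than the 4.57% over all genes and sets, so the count is no result about the receptors. Crhr1, a receptor of Crh, fell in layer 6 corticothalamic-like neurons (log2 fold change -1.39 ± 0.40 (SE), edgeR, adjusted p = 0.0313), where 12.4% of genes were called, and in upper-layer-like neurons (-0.63 ± 0.16, adjusted p = 0.0390), where 7.35% were. Oprk1, the kappa opioid receptor for dynorphins, rose in all excitatory neurons (1.12 ± 0.28, adjusted p = 0.0245), where 14.1% were, and Oprm1, the mu opioid receptor on which enkephalins act, rose in Sst-like interneurons (0.74 ± 0.18, adjusted p = 0.0444), where 1.58% were. All 4 calls were lost without young AAV-EGFP replicate 3 (edgeR, adjusted p of 0.102 to 0.173), and each was lost without at least 2 other mice as well. Oprk1 is also among the markers that named deep intratelencephalic-like neurons. These were 92 of 6938 excitatory nuclei in young AAV-EGFP and 172 of 7574 in aged AAV-EGFP. The unnamed cluster led by Blnk, which also passed Oprk1, had 161, 215 and 179 nuclei in the young mice. It had 212, 410 and 273 in the aged AAV-EGFP mice. The part of this makeup in the call of Oprk1 was not tested.

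With treatment 3 of 102 pairs were called, against 0.803% over all genes and sets in either direction and 0.568% called lower. All 3 were for Oprm1, and the excitatory set holds both types named with it. Oprm1 fell in all excitatory neurons (log2 fold change -1.20 ± 0.21 (SE), edgeR, adjusted p = 0.0286, where 2.17% of genes were called), in layer 6 corticothalamic-like neurons (-1.06 ± 0.23, adjusted p = 0.0228, where 2.86% of genes were called) and in middle-layer-like neurons (-1.10 ± 0.20, adjusted p = 0.0369, where 0.642% were called). All 3 were lost without aged AAV-EGFP replicate 2, aged AAV-B3GNT3 replicate 1 or aged AAV-B3GNT3 replicate 2 (edgeR, adjusted p of 0.103 to 0.195), and outside layer 6 also without young AAV-EGFP replicate 3 (0.0516 and 0.0747). The median log2 fold change of the receptor pairs was -0.06 with age and 0.00440 with treatment. Of 10 other neuropeptide genes, 6 passed the filter in 13 pairs, and edgeR called 0 of them in either comparison. At an unadjusted p under 0.05 there were 0 with age and 2 with treatment, and DESeq2 also called 0.

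With the 4 interneuron types summed into 1 set, which was added after the values above were seen, 4 of the 10 genes were called with age, where 4.99% of genes were called, and 3 with treatment, where 2.01% were called. Sst rose by 1.46 ± 0.15 on the log2 scale (SE; edgeR, adjusted p = 0.00053), Npy by 0.93 ± 0.19 (0.0173), Vip by 1.02 ± 0.27 (0.0428) and Cck by 0.95 ± 0.19 (0.0189). With treatment Sst fell by 1.24 ± 0.14 (edgeR, adjusted p = 0.0033), Npy by 1.29 ± 0.19 (0.0082) and Cck by 0.95 ± 0.19 (0.0270). Of 18 other settings, which include each mouse left out, the calls with age were kept in 18 for Sst, 14 for Npy, 14 for Cck and 11 for Vip. Those with treatment were kept in 17 for Sst, 15 for Npy and 13 for Cck. Leaving out aged AAV-EGFP replicate 2 ended all 3 treatment calls (edgeR, adjusted p of 0.0684 for Sst, 0.0814 for Npy and 0.172 for Cck). The treatment calls of Npy and Cck were also lost without aged AAV-B3GNT3 replicates 1 or 2, and that of Cck without aged AAV-EGFP replicate 3. With age Sst kept its call without any 1 mouse, while Npy, Vip and Cck lost theirs without young AAV-EGFP replicate 3 or aged AAV-EGFP replicates 2 or 3, Vip and Cck also without young AAV-EGFP replicate 1, and Vip also without aged AAV-B3GNT3 replicate 1 (adjusted p of 0.0512 to 0.206). Sst-like nuclei made up 30.1 ± 1.19% of these interneurons in the young mice, 33.2 ± 1.53% in the aged AAV-EGFP mice and 28.2 ± 1.57% in aged AAV-B3GNT3 (SD, n = 3), and the part of this makeup in the pooled values was not tested.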

How the data were processed

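The deposited matrices hold raw UMI counts per gene and nucleus, made by the authors with Cell Ranger and mm10. The submitters' processing notes give version 4.0.0 and the matrix headers 7.2.0. Whether intronic reads were counted was not determined. Nuclei needed 200 to 5000 genes and no more than 10% mitochondrial UMIs, and doublets were removed at 0.8% per 1000 barcodes by simulated neighbours. Neurons were clustered by the Leiden method (leidenalg 0.10.2) on 2000 variable genes without the 10 peptide genes and named from at least 3 markers. This naming can differ from that of the study. Counts were summed per mouse and type (at least 10 nuclei in each mouse), passed through filterByExpr at a minimum count of 10, and TMM-scaled sums of all 9 samples entered 1 edgeR 4.0.16 fit per type. DESeq2 1.42.0 was an alternative. Differences between types used limma 3.58.1 on log2 CPM with a prior count of 2. Tests were two-sided and were tested on simulated data.

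Fold changes are given for textbook pairs of gene and type and for any other called pair. For each gene the 3 most alike genes are named, among those reaching 20 CPM in a type. The members, lists and tests were chosen with earlier results of these data known. Other settings were no filter, RLE size factors, the replicate block, only the compared groups, finer clustering, doublets kept, nuclei above the upper limit of genes kept, background subtraction and each mouse left out. Counting error of single nuclei is covered only through the spread between mice.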

Additional observations from a re-analysis of the deposited data

How the results depend on the processing

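With age 4 of the 10 genes were called in at least 1 set. The share of all genes called in at least 1 set is not given, nor are shares of all genes in the other settings. In all excitatory neurons alone, 14.1% of genes were called with age in the main setting. The counts in this paragraph describe how calls moved with the settings and are no result about the 10 genes. Without a filter on low counts 7 genes were called with age, after background subtraction 3 (Cck, Sst and, newly, Penk), and leaving out 1 mouse gave 2 to 7. There were 2 without young AAV-EGFP replicate 3 or aged AAV-EGFP replicates 2 or 3, and 7 without aged AAV-EGFP replicate 1. With treatment 3 were called, against 5 without a filter and 1 after background subtraction, and leaving out 1 mouse gave 0 to 6. There were 0 without aged AAV-EGFP replicate 2, aged AAV-B3GNT3 replicate 1 or aged AAV-B3GNT3 replicate 2, and 6 without aged AAV-EGFP replicate 1. With the replicate block 4 and 3 were called, and 0 differences between types. The labels do not say whether the numbers pair the mice. Same-numbered samples of different groups had deviations that correlated at -0.12 to 0.12 in Sst-like interneurons (over 0.1 in 1 of 9 pairs of samples). The range was -0.07 to 0.20 in Vip-like interneurons (2 of 9) and -0.29 to 0.32 in excitatory neurons (3 of 9). Among pairs with different numbers 3, 2 and 4 of 18 were over 0.1 in the same order. These values cannot show whether same-numbered mice were processed together. The block ended the calls with age of Cck in CA1-like neurons (adjusted p = 0.0578), Cck in Sst-like interneurons (0.0668) and Sst in excitatory neurons (0.0509), and with treatment that of Npy in Sst-like interneurons (0.0644). It made calls of Npy in Lamp5-like (0.0434) and Cck in middle-layer-like neurons (0.0492) with treatment. Called pairs were 9 of 54 with age, against 20 of 169 without a filter, 6 of 54 with the replicate block, 6 of 169 with DESeq2 and 4 of 29 after background subtraction, and 2 to 17 when 1 mouse was left out. With treatment they were 4, against 12, 5, 7 and 1 in the same order, and 0 to 11 when 1 mouse was left out. The number of differences between types called was 0 in every setting run. Sst and Cck with age kept their calls in Sst-like and middle-layer-like neurons, respectively, in all 18 settings. The treatment call of Sst in Sst-like interneurons was kept in 15 of 18 settings, those of Npy in Sst-like in 8, Cck in Vip-like in 11 and Cck in CA1-like neurons in 12 of 17, and the call of Cck with age in CA1-like neurons in 8 of 18.

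Signs changed for 5 of the log2 fold changes, and only where neither value was called. Leaving out 1 mouse at a time moved Cort in Sst-like interneurons from -0.0142 to 0.73 with age, with the lowest value without aged AAV-EGFP replicate 3. With treatment the same range for Cort was -0.93 to 0.23, above 0 without aged AAV-EGFP replicate 3 and, at 0.15, without aged AAV-B3GNT3 replicate 2. For Penk in Vip-like interneurons with treatment it was -0.22 to 0.33, below 0 without aged AAV-EGFP replicate 1, and with doublets kept the value was -0.0879. For Pdyn in Sst-like interneurons it was -0.45 to 0.52, above 0 without aged AAV-EGFP replicate 3 and, at 0.02 and 0.13, without aged AAV-B3GNT3 replicates 2 and 3, and DESeq2 gave 0.00024. For Tac1 in striatal D1-like neurons it was -0.16 to 0.0369, above 0 without aged AAV-B3GNT3 replicate 3 and, at 0.02, without aged AAV-EGFP replicate 1. The cause was not tested. Crh and Penk in Vip-like and Cort and Pdyn in Sst-like interneurons each had at most 51 UMIs per mouse.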
